A study of Mus musculus with 34 samples.

Results

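The nuclear-encoded subunits of the respiratory chain and ATP synthase were examined in bulk RNA-seq of the mouse dorsal hippocampus after spatial learning. Members were the protein-coding rows of the count table whose GENCODE symbol belongs to the *Nduf* subunit series, *Sdha* to *Sdhd*, the *Uqcr* genes and *Cyc1*, *Cox4* to *Cox8*, or *Atp5*, with the *Ndufaf* assembly factors left out. The rule used no measured value. It took 86 of the 54532 genes in the table, of which 37 belong to complex I, 4 to complex II, 9 to complex III, 18 to complex IV and 18 to complex V. Of these 86 genes, 85 had enough counts to be tested, and the remaining gene, *Cox8c*, had 0 counts in all 8 libraries.

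The study sequenced the dorsal hippocampus of 8 adult male C57BL/6J mice, 2 to 3 months old by its methods, with 1 library per mouse. The 4 SOR mice had been habituated to an open field and then trained with objects at fixed places in it (spatial object recognition), and by the study's account their tissue was taken 1 h after training. The 4 homecage mice stayed untrained and were killed at the same time of day. No transgene, virus or drug was used in these animals, and each value is an average over all cells of the dissected tissue.

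Complexes I to IV carry electrons from NADH and succinate to oxygen, complexes I, III and IV pump protons across the inner mitochondrial membrane, and complex V, the ATP synthase, uses that gradient to make ATP. Most of their subunits are encoded in the nucleus, while a core set of complexes I, III, IV and V is encoded in mitochondrial DNA, so both genomes have to be read to build the chain. Neurons depend on this pathway for the ATP that ion pumping and synaptic transmission use. Several complex IV subunits exist as pairs of isoforms, one found in most tissues and another known from heart and skeletal muscle, lung or testis.

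Promoter sequences are shown for 5 members, because some promoter letters were more frequent in this family than over all genes. The selection rule did not use these letters. RefSeq windows on GRCm38.p6, each reaching from 250 bases before a transcription start site to 50 bases after it, were matched for 68 of the 86 members. *Sdha* and *Cox6a1* are shown as members with repeated NRF-1 letters, *Uqcrh* and *Cox8a* as the highest members of complexes III and IV per kb of principal transcript, and *Cox8b* as the low isoform of *Cox8a*. Each line below is the 250 bases before the start site, 5′ to 3′ on the gene's strand. Capitals mark matches to the letters searched, given with their names after the sequences.
Sdha, chr13:74350241-74350490, minus strand: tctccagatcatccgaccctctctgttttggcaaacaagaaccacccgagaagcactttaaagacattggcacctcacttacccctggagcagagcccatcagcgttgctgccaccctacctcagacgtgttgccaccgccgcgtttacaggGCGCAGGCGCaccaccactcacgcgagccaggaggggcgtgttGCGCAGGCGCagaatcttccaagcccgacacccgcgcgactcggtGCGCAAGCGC
Cox6a1, chr5:115348959-115349208, minus strand: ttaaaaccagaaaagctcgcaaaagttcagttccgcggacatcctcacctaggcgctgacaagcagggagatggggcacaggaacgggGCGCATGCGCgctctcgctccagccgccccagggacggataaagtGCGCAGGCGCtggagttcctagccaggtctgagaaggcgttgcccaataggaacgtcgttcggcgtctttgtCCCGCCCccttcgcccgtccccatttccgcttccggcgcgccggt
Uqcrh, chr4:116075071-116075320, minus strand: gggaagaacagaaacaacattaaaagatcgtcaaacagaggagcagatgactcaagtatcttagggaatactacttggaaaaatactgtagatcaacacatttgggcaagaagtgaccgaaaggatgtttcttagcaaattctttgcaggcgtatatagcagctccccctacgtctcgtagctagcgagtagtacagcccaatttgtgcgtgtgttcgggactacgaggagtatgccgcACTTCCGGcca
Cox8a, chr19:7217617-7217866, minus strand: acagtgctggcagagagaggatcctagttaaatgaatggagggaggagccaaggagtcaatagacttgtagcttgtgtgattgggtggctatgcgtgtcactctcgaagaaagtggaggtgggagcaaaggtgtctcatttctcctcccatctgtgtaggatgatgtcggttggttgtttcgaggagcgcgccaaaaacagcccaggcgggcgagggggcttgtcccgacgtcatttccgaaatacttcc
Cox8b, chr7:140900447-140900696, minus strand: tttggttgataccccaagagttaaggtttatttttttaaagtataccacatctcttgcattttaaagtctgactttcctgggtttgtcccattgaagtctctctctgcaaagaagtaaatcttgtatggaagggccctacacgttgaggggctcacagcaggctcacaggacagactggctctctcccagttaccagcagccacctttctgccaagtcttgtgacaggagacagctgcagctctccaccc

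The letters of NRF-1, a transcription factor known from genes of the respiratory chain, were searched as the letters capitalized in the *Sdha* line, with any base after the first A, and were present in the windows of 17 of 68 members (25.0%), compared with 5.19% of the 27025 genes in the promoter table. They occurred in 7 of 32 complex I members, 2 of 3 of complex II, 1 of 5 of complex III, 1 of 13 of complex IV and 6 of 15 of complex V. The YY1 letters AAGATGGCG were present in 7 members (10.3%, against 1.64% of all genes), 5 of them in complex I and 2 in complex V. In *Atp5j* they lay 88 bases before the start site, and in the other members 22 to 35 bases after it, within the transcript. The letters CCGGAAGT, bound by ETS factors such as GABP, were present in 5 members (7.35%, against 4.31%), and the Sp1 letters GGGCGGG in 24 members (35.3%, against 27.9%). Each motif was searched on both strands, and matches of different motifs were allowed to overlap. At least 1 of the first 3 motifs was found in 27 of 68 members (39.7%), compared with 10.3% of all genes.

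These shares are descriptions, and a match in a window is not a binding site. The members' windows were also richer in G and C, with a median of 57.3% against 52.7% over all 32851 windows, and the part of base composition in these shares was not tested. *Sdha* holds the NRF-1 letters at 3 places and *Cox6a1* at 2. The printed stretch of *Cox8a* holds no complete match, although its full window holds the ETS letters at the start site and downstream of it. Among the low isoforms described further on, 4 had a window, of which 0 held the NRF-1, ETS or YY1 letters and 2 held the Sp1 letters. *Cox8b* held none of the motifs in its window.

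At the level of whole complexes, transcript abundance differed little between SOR and homecage mice. Abundance is given as CPM, the count divided by the library size after scaling with upper-quartile factors, and the summed CPM of a complex adds all its members. Abundant genes weigh most in such a sum: in homecage mice *Sdha* averaged 347 of the 516 CPM of complex II. In complex V, *Atp5a1* and *Atp5b* averaged 840.0 and 830.5 of the 2762 CPM in homecage mice. Complex I summed to 2113, 2162, 2146 and 2125 CPM in homecage mice 1 to 4, and to 2184, 2049, 2022 and 2099 CPM in SOR mice 1 to 4. Complex V summed to 2706, 2808, 2777 and 2756 CPM in homecage mice and to 2903, 2639, 2592 and 2742 CPM in SOR mice. In both complexes SOR mouse 1 had the highest and SOR mouse 3 the lowest value of all 8 mice, and the groups overlapped.

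**Figure D1:**
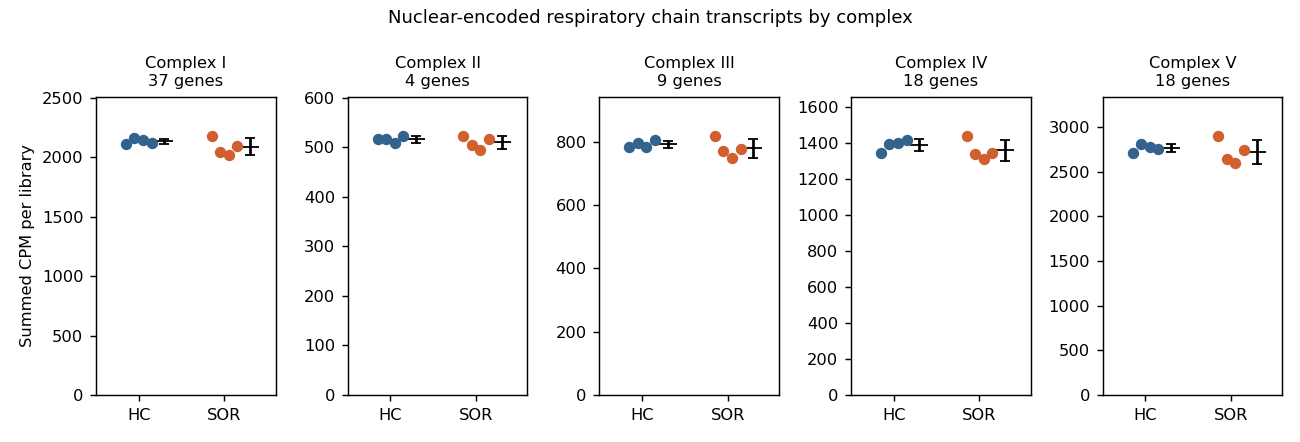
Summed CPM of the members of each complex in every library (points), with the group mean and SD beside them (bars, n = 4 mice per group); each vertical axis starts at 0. In all 5 complexes the SOR points spread wider than the homecage points and overlap them, and the SOR means differ from the homecage means by -1.18% to -2.24%; under TMM scaling the range is -0.846% to 0.225%, with complex II above 0.

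The group means were 2137 ± 21.6 and 2089 ± 71.4 CPM for complex I in homecage and SOR mice (SD, n = 4), a difference of -2.24%. Complex II, which links the citrate cycle to the chain, had 516 ± 6.17 and 509.9 ± 13.3 CPM, a difference of -1.18%. Complex III, the cytochrome bc1 complex, had 791 ± 10.9 and 778 ± 30.0 CPM, a difference of -1.65%. Complex IV, the cytochrome c oxidase, had 1388 ± 31.8 and 1358 ± 56.6 CPM, a difference of -2.16%, and complex V had 2762 ± 42.6 and 2719 ± 138 CPM, a difference of -1.54%. Every one of these differences was smaller than the SD of the SOR group. Under TMM scaling they shrank to -0.846%, 0.225%, -0.238%, -0.755% and -0.120% for complexes I to V, and the groups overlapped in each complex. In bulk tissue, fewer cells of a type and less RNA per cell cannot be told apart.

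Gene by gene, 0 of the 85 tested members passed an adjusted p of 0.05 in the quasi-likelihood test of edgeR. Over all 22018 genes tested, 0.309% passed that threshold, and 0.173% also exceeded a fold change of 1.4. At an unadjusted p under 0.05 the members numbered 4 (4.71%), against 10.1% of all genes. The 4 were *Ndufs1*, *Ndufb8* and *Atp5s*, which were lower in SOR mice (5.51% of all genes were lower at that p), and *Cox8b*, which was higher (4.54% of all genes). DESeq2, limma-voom and the likelihood ratio test of edgeR also passed 0 members after adjustment, with 5, 3 and 4 at an unadjusted p under 0.05. DESeq2 gave an adjusted p for 80 of the 85 members only, and *Cox4i2*, *Cox6b2*, *Cox7b2*, *Cox8b* and the second *Atp5o* record could not pass there. The values of the 4 SOR mice and the 4 homecage mice did not overlap for 1 member, *Ndufs1*, lower in SOR mice (1.18%). Over all genes 6.95% did not overlap, and 3.96% did so with SOR lower.

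Intervals of the fold change were more often narrow for the members than for all genes tested. The 95% interval of the fold change, which was not adjusted for the number of genes, lay within a fold of 1.4 in either direction for 78 of 85 members (91.8%), compared with 58.9% of all genes tested. It lay within a fold of 1.1 for 21 members (24.7%), compared with 7.26%. The 7 members whose interval reached past 1.4 were the low isoforms *Ndufa4l2*, *Cox4i2*, *Cox6b2*, *Cox7a1*, *Cox7b2* and *Cox8b*, and a second *Atp5o* record. Among the 76 members above 5 CPM, the median coefficient of variation within groups was 5.31%, against 6.70% over the 11954 genes above that level. The members were more often above 5 CPM (76 of 85) than all genes tested (11954 of 22018), and no interval share at a matched level is given.

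**Figure D2:**
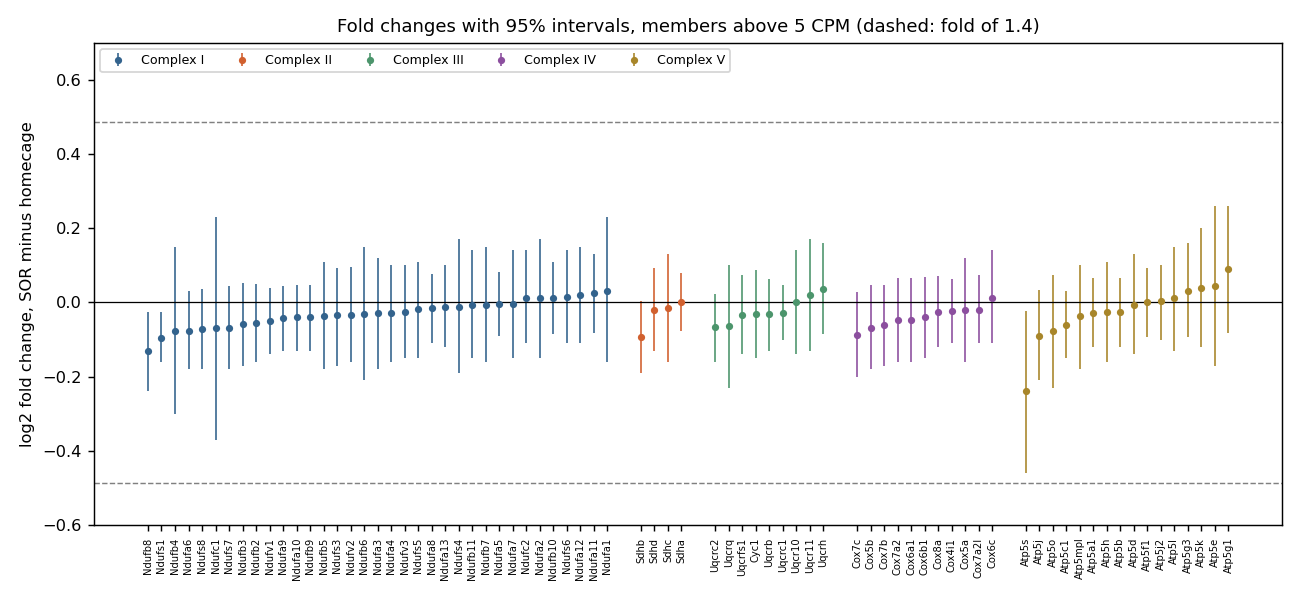
log2 fold change (SOR minus homecage) of 75 of the 76 members above 5 CPM, ordered within each complex, with 95% intervals from the quasi-likelihood fit as vertical lines and a fold change of 1.4 as dashed lines. All 75 intervals lie between the dashed lines, and the points run from -0.24 for *Atp5s* to 0.091 for *Atp5g1*; under TMM scaling all points move up together and the median of all genes moves from -0.019 to 0.0006.

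The number of members higher in SOR mice, and the sign of some complex medians, depended on library scaling and on single mice. Under upper-quartile scaling 27 of 85 members were higher in SOR mice (31.8%) and 58 lower (68.2%), while 43.8% of all genes were higher and 56.2% lower. Under TMM scaling 41 of 85 members were higher (48.2%), beside 50.2% of all genes. The median log2 fold change of the members was -0.025, and that of all genes tested was -0.019. Without SOR mouse 1 the number of members higher in SOR dropped to 13, and without SOR mouse 3 it was 42. The medians per complex were -0.029 for complex I, -0.018 for complex II, -0.032 for complex III, -0.024 for complex IV and -0.0037 for complex V, and those of complexes II and V turned to 0.0027 and 0.017 under TMM scaling. The medians of all members and of complexes I, III and IV stayed negative in every alternative fit. Under TMM scaling the members' median was -0.0045, beside 0.0006 for all genes.

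Members tended to deviate from their mean in the same direction within a library, with the largest medians in SOR mice 1, 2 and 3. For each of the 76 members above 5 CPM, the log2 CPM in a library was compared with the gene's mean over the 8 libraries. SOR mouse 1 had a median deviation of 0.069, with 63 of 76 members above their own mean and 36 at their highest of all libraries. SOR mouse 3 had a median deviation of -0.070, with 5 members above their mean and 25 at their lowest, and SOR mouse 2 had -0.058. SOR mouse 4 lay at 0.0055, and the homecage mice lay between -0.019 and 0.030. In homecage mice 1 to 4, 28, 58, 48 and 52 of the 76 members lay above their own mean. The same measure over all genes is not given.

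SOR mouse 1 lay above the mean and SOR mouse 3 below it in each complex. The median deviation of SOR mouse 1 was 0.066, 0.053, 0.051, 0.076 and 0.095 in complexes I to V. That of SOR mouse 3 was -0.069, -0.090, -0.057, -0.053 and -0.081. Summed over all members, the SOR libraries had 7871, 7297, 7168 and 7479.5 CPM and the homecage libraries 7462, 7677, 7613 and 7623 CPM. The spread among SOR mice (SD 306) was larger than among homecage mice (SD 92.3), and this difference in spread was not tested.

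**Figure D3:**
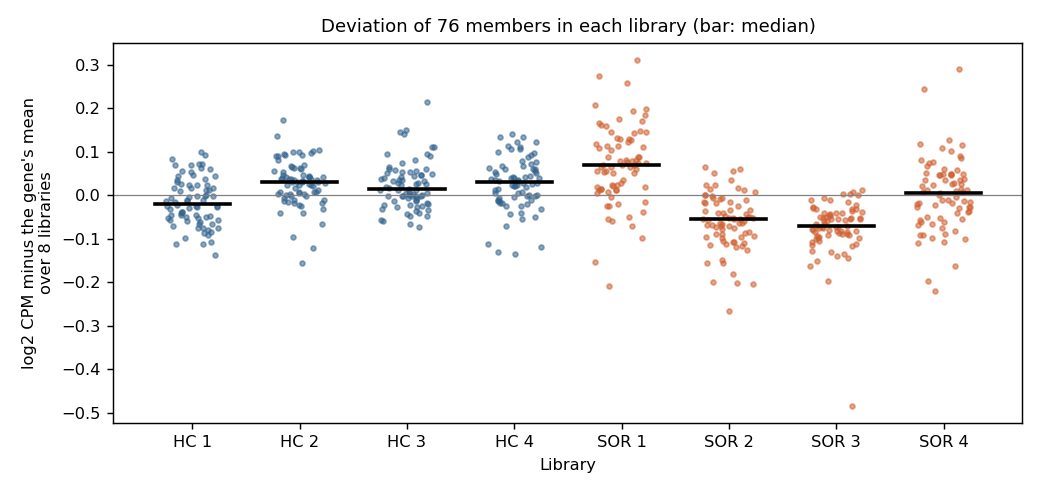
Deviation of each of 76 members from its own mean log2 CPM over 8 libraries (points, 1 per gene), with the median of each library as a bar. The medians of the 4 homecage libraries lie between -0.019 and 0.030, while those of the SOR libraries run from -0.070 (SOR 3) to 0.069 (SOR 1); the single point near the bottom of SOR 3 belongs to *Ndufc1*.

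In complex I, the NADH dehydrogenase, 8 members were higher in SOR mice and 29 lower, and the median log2 fold change moved from -0.029 to -0.0072 under TMM scaling. *Ndufs1* (chr1:63143596-63176833, minus strand, GRCm38), the largest subunit and carrier of iron-sulfur clusters in the NADH-oxidizing arm, had 144, 145, 145 and 143 CPM in homecage mice and 133, 138, 135 and 135 CPM in SOR mice. Every SOR value was below every homecage value. The log2 fold change was -0.095 ± 0.032 (SE), with a 95% interval of the fold change from 0.892 to 0.983, an unadjusted p of 0.0127 and an adjusted p of 0.338 by edgeR. An exact two-sided permutation test over the 70 assignments gave p = 0.0286, the smallest value it can give with 4 mice per group. Any gene whose groups do not overlap gets this value, so it adds nothing to the separation. The difference did not pass the adjustment over all genes.

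*Ndufb8* (chr19:44548572-44555440), an accessory subunit of the membrane arm, had 65.8, 73.9, 69.7 and 72.4 CPM in homecage mice and 60.5, 64.8, 65.4 and 66.6 CPM in SOR mice. One SOR value, that of mouse 4, lay above the lowest homecage value. The log2 fold change was -0.13 ± 0.048 with an edgeR adjusted p of 0.396. Other core subunits of the complex had log2 fold changes of -0.050 for *Ndufv1*, -0.033 for *Ndufv2*, -0.072 for *Ndufs8*, -0.068 for *Ndufs7* and -0.035 for *Ndufs3*. Their groups overlapped, and their edgeR adjusted p lay between 0.674 and 0.896.

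*Ndufs3*, a core subunit of the same arm, had 51.8, 52.0, 51.8 and 49.0 CPM in homecage mice and 52.3, 51.3, 44.0 and 52.1 CPM in SOR mice. Its lower SOR mean came from SOR mouse 3 alone. The highest complex I member per kb of its principal transcript was *Ndufb9*, at 189.9 CPM per kb, with 129 to 142 CPM in homecage mice and 128 to 134 CPM in SOR mice. *Ndufa4l2* is an isoform of *Ndufa4* known to be induced by low oxygen. It had 0.987, 0.819, 1.06 and 1.04 CPM in homecage mice and 1.11, 1.01, 1.07 and 1.44 CPM in SOR mice. The log2 fold change was 0.26 ± 0.17 with an edgeR adjusted p of 0.670. *Ndufa4* itself, now counted with complex IV by many authors, was at 116 CPM per kb and showed a log2 fold change of -0.029.

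Complex II, the succinate dehydrogenase, is built from 4 nuclear genes and has no mitochondrially encoded subunit. *Sdha* (chr13:74322254-74350280), the flavoprotein that oxidizes succinate, had 356, 348, 339 and 346 CPM in homecage mice and 353, 345, 341 and 351 CPM in SOR mice. The groups overlapped in full, and the log2 fold change was 0.0011 ± 0.035 with a 95% interval of the fold change from 0.948 to 1.06. Its sign turned under 2 or 3 RUVs factors and with single mice left out, at values no further from 0 than 0.015.

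*Sdhb*, the iron-sulfur subunit that takes electrons from *Sdha*, had 80.3, 86.2, 85.1 and 89.0 CPM in homecage mice and 80.3, 78.5, 77.0 and 83.6 CPM in SOR mice. Its homecage values reached higher, but the groups overlapped, and the log2 fold change of -0.093 ± 0.044 had an edgeR adjusted p of 0.510. The membrane anchors *Sdhc* and *Sdhd* had log2 fold changes of -0.016 and -0.020. Per kb of transcript *Sdha* was at 119.8, *Sdhb* at 72.2, *Sdhd* at 28.2 and *Sdhc* at 15.2 CPM, although one protein of each stands in the assembled complex.

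In complex III, 3 members were higher in SOR mice and 6 lower. *Uqcrh*, the hinge subunit that binds cytochrome c1, was the highest at 227 CPM per kb of principal transcript. Per kb of all exons joined, *Uqcr11* stood above it, at 104 against 100.3 CPM. *Uqcrh* had 117, 127, 124 and 123 CPM in homecage mice and 139, 118, 118 and 127 CPM in SOR mice. SOR mouse 1 stood above all others, and the log2 fold change of 0.036 ± 0.055 turned to -0.018 without it. *Uqcrc2*, a core protein, had 189, 185, 179 and 189 CPM in homecage mice and 183, 184, 170.2 and 171 CPM in SOR mice, with a log2 fold change of -0.067 ± 0.040 and an edgeR adjusted p of 0.628. The electron carriers *Cyc1* (cytochrome c1) and *Uqcrfs1* (the Rieske iron-sulfur protein) had log2 fold changes of -0.032 and -0.035, and their groups overlapped.

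In complex IV, the 11 members above 5 CPM lay between -0.087 and 0.013 in log2 fold change, and their intervals reached no further than 0.870 and 1.1 in fold. *Cox7c*, at the lower end, had 47.5, 51, 54.9 and 50.9 CPM in homecage mice and 49.9, 45.8, 48.3 and 48.2 CPM in SOR mice, so that the groups overlapped (edgeR adjusted p = 0.617). *Cox4i1*, a regulatory subunit that binds ATP, had 211, 215, 219.8 and 219.9 CPM in homecage mice and 226, 212, 209 and 205 CPM in SOR mice. *Cox8a*, the highest of the complex at 412 CPM per kb, had 228, 226, 233 and 227 CPM in homecage mice and 244, 219, 218 and 217 CPM in SOR mice. In both genes SOR mouse 1 was the highest of all 8 and the other 3 SOR mice lay at or below most homecage values.

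The hippocampus used the widely expressed isoform of each complex IV pair. Per kb of principal transcript, *Cox4i1* stood 347 times above *Cox4i2*, the form known from lung, and *Cox6a1* stood 69.5 times above *Cox6a2*, the heart and muscle form. The ratio was 39.6 for *Cox7a2* over the muscle form *Cox7a1* and 412 for *Cox8a* over the muscle form *Cox8b*. Over the forms known from testis it was 239.6 for *Cox6b1* and *Cox6b2* and 210.1 for *Cox7b* and *Cox7b2*, and the testis form *Cox8c* had 0 counts, where a count of 0 allows up to 3 counts in a library. For *Ndufa4* over *Ndufa4l2* the ratio was 102. Library by library, these 7 ratios never fell under 21.2 in either group.

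**Figure D4:**
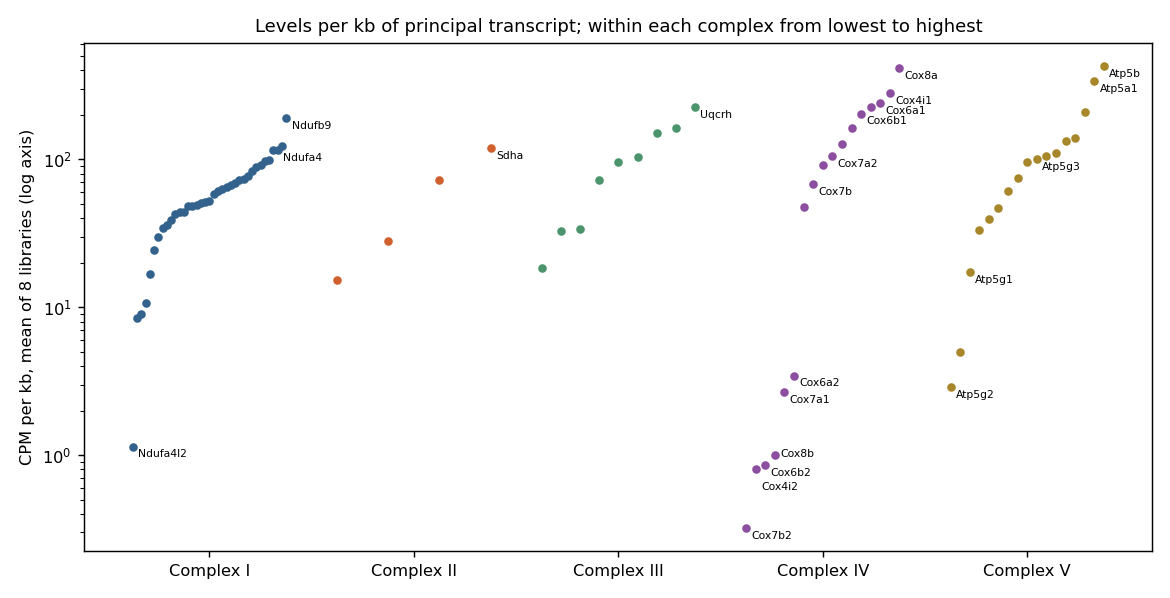
Mean CPM over 8 libraries per kb of principal transcript (log axis) for every member with counts except the second *Atp5o* record, ordered from low to high within each complex. The low isoforms of complex IV and *Ndufa4l2* lie below 4 CPM per kb, while the other complex IV members lie between 48.0 and 412.

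The largest fold changes of the family, those of *Cox8b*, *Cox6b2*, *Cox7b2* and *Cox7a1*, belonged to low isoforms, and 0 of these passed the adjusted test in the quasi-likelihood fit. *Cox8b* (chr7:140898945-140900446, minus strand) had 0.226, 0.0420, 0.0546 and 0.226 CPM in homecage mice and 1.52, 0.406, 0.320 and 0.0778 CPM in SOR mice. These levels rest on 2.99 to 113 estimated counts per library. SOR mice 1 to 3 lay above all homecage mice and SOR mouse 4 lay among them, and the log2 fold change was 2.12 ± 0.79 with an unadjusted p of 0.0221 and an adjusted p of 0.400 by edgeR. Without SOR mouse 1 it was 1.0, with an adjusted p of 0.684. The study's methods name RUVs factors for latent variation in the bulk data, with no number given. With 1, 2 or 3 such factors and the likelihood ratio test, *Cox8b* was the single member that passed, at adjusted p of 0.0495, 0.0225 and 0.0434. Over all genes these fits passed 1.38%, 2.26% and 2.28%, so that 1 of 85 members (1.18%) was no larger a share than the background.

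Markers of the choroid plexus, the secretory epithelium that borders the hippocampus, were high in the libraries where *Cox8b* was high. The summed CPM of *Ttr*, *Folr1*, *Kl* and *Clic6* was 1079, 24.3, 64.0 and 871 in homecage mice and 3951, 871, 784 and 40.2 in SOR mice. All 4 markers were higher on average in SOR mice, with 0 passing the adjusted test. In the 3 libraries with a marker sum between 24.3 and 64.0, *Cox8b* lay between 0.0420 and 0.0778 CPM, and in the 5 libraries with a sum between 784 and 3951 it lay between 0.226 and 1.52 CPM. Within these sets the order differed. Homecage mice 1 and 4 (sums 1079 and 871) had 0.226 CPM of *Cox8b* each. SOR mice 2 and 3 (871 and 784) had 0.406 and 0.320 CPM. In the lower set SOR mouse 4 (40.2) had 0.0778 CPM and homecage mouse 3 (64.0) had 0.0546 CPM. SOR mouse 1 was the highest in both measures. The libraries fell into separate clusters of marker level, so no correlation across them is given, and the part of choroid plexus tissue in the *Cox8b* difference was not tested. The other low isoforms overlapped between these libraries.

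*Cox6b2* had 0.400, 0.436, 0.229 and 0.273 CPM in homecage mice and 1.45, 0.486, 0.336 and 0.367 CPM in SOR mice. Its log2 fold change of 1.0 ± 0.47 was 0.24 without SOR mouse 1. *Cox7a1* had 0.727, 1.08, 0.713 and 0.831 CPM in homecage mice and 2.10, 0.930, 1.17 and 0.790 CPM in SOR mice. Its log2 fold change of 0.58 ± 0.30 was 0.20 without SOR mouse 1. In both genes SOR mouse 1 was the highest library. SOR mouse 2 for *Cox6b2* (0.486 CPM) and SOR mouse 3 for *Cox7a1* (1.17 CPM) also lay above all homecage mice. The remaining SOR mice lay within the homecage range. *Cox4i2*, *Cox6a2* and *Cox7b2* had log2 fold changes of 0.035, -0.030 and 0.63 with standard errors of 0.22, 0.13 and 0.46. Markers of heart and skeletal muscle summed to between 4.59 and 7.66 CPM in all libraries, and SOR mouse 1 had the lowest sum. The single markers differed in that mouse. *Acta1* and *Tnnt2* were at their lowest of all libraries, with 2.63 and 1.21 CPM. *Myh6* had 0.707 CPM, near the top of the homecage values (0.257 to 0.729). *Ckm* and *Myl2* were too low to be tested. The part of muscle tissue in these values was not tested.

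**Figure D5:**
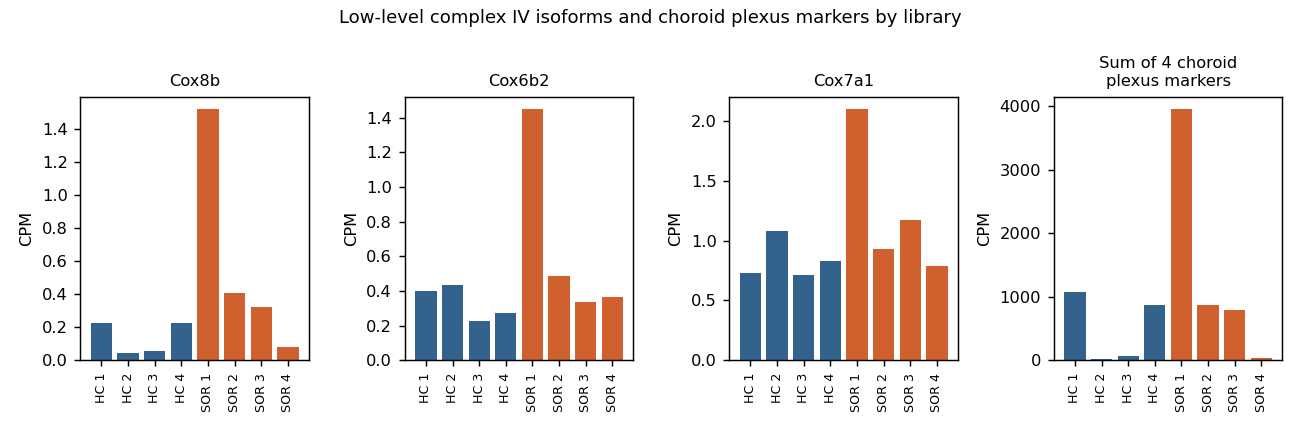
CPM in each library of *Cox8b*, *Cox6b2* and *Cox7a1* and the summed CPM of 4 choroid plexus markers (bars, each axis from 0; homecage 1 to 4 in blue, SOR 1 to 4 in orange). SOR mouse 1 is the highest library in all 4 panels, and *Cox8b* follows the marker panel in the libraries at its lower end (HC 2, HC 3 and SOR 4).

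Complex V held 9 members higher and 9 lower in SOR mice. The catalytic pair *Atp5a1* and *Atp5b*, which form the ring where ATP is made, were among the most abundant members at 337 and 429.7 CPM per kb. *Atp5a1* had 849, 856, 830.4 and 824 CPM in homecage mice and 872, 803, 785 and 834 CPM in SOR mice. *Atp5b* had 814, 849.8, 837 and 821 CPM in homecage mice and 854, 803, 781 and 827 CPM in SOR mice. The pair moved alike from mouse to mouse in the SOR group, with mouse 1 highest and mouse 3 lowest, and their log2 fold changes were -0.029 ± 0.043 and -0.025 ± 0.041.

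*Atp5s*, a factor that carries an ATP synthase name without being a structural part of the enzyme, had the lowest fold change of the members above 5 CPM. It had 8.32, 8.48, 9.20 and 8.57 CPM in homecage mice and 6.86, 6.59, 7.20 and 8.60 CPM in SOR mice. SOR mice 1 to 3 lay below all homecage mice and SOR mouse 4 among them, and the log2 fold change was -0.24 ± 0.10 with an unadjusted p of 0.0342 and an adjusted p of 0.453 by edgeR. *Atp5g1*, *Atp5g2* and *Atp5g3* encode the same mature ring protein with different import sequences. *Atp5g1* had 76.0, 79.6, 81.3 and 79.7 CPM in homecage mice and 101, 79.0, 77.0 and 80.1 CPM in SOR mice, with a log2 fold change of 0.091 ± 0.078. SOR mouse 1 stood apart, and the other SOR values lay within the homecage range.

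Per kb of principal transcript, *Atp5g3* was at 101, *Atp5g1* at 17.3 and *Atp5g2* at 2.89 CPM, but the order of the first pair depends on transcript length, since the principal transcript of *Atp5g1* is annotated at 4715 bases and that of *Atp5g3* at 723 bases. The ratio of *Atp5g1* to *Atp5g3* per kb was 0.162 to 0.175 in homecage mice and 0.155 to 0.197 in SOR mice. The table also holds a second *Atp5o* record (ENSMUSG00000116933, chr16:91684398-91926982), which overlaps *Atp5o* and its neighbour *Donson* and shares sequence with both. It had 0.274 ± 0.166 and 0.355 ± 0.119 CPM in homecage and SOR mice, against 115 ± 3.02 and 109 ± 11.9 CPM for *Atp5o* (SD, n = 4), and how the counting split reads among these records is uncertain.

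Some members share long stretches of sequence with processed pseudogenes, which makes their levels uncertain. At least 100 subsequences of 31 bases were shared with a gene elsewhere in the genome by 19 of the 86 members, and for 6 of them that gene was above 1 CPM. *Ndufb4*, an accessory subunit of complex I, was at 10.3, 10.9, 10.2 and 10.7 CPM in homecage mice and 9.53, 8.86, 9.42 and 12.1 CPM in SOR mice, while the pseudogene *Ndufb4c* averaged 53.8 CPM. Summed, the pair was at 66.7 ± 1.0 CPM in homecage mice and 61.4 ± 1.85 CPM in SOR mice. The summed values did not overlap between the groups (lowest homecage value 65.6, highest SOR value 63.7), a pattern met by 3.96% of all genes, and the pair was singled out after its values were seen. *Ndufb4c* itself had a log2 fold change of -0.13 with an edgeR adjusted p of 0.329.

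*Atp5g2* was at 2.11 CPM on average and the pseudogene *Gm10175*, which shares 37.5% of its 31-base subsequences, at 31.8 CPM. Their sum was 34.1 ± 2.60 in homecage mice and 33.8 ± 3.01 in SOR mice. The pseudogene *Gm15920* of *Ndufa12* was listed at 7.87, 7.35, 0 and 0 CPM in homecage mice and 8.43, 0, 0 and 4.18 CPM in SOR mice, which is 0 in 4 of 8 libraries. Summed with it, *Ndufa12* was at 70.8 ± 2.19 and 71.2 ± 3.62 CPM in the groups. For *Cox7c*, *Atp5h* and *Atp5f1* the pseudogene averaged 12.4, 5.15 and 3.8 CPM against 49.6, 142 and 176 CPM for the member, and the sum had a fold change of 0.943, 0.985 and 1.0.

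The mitochondrially encoded partners of these subunits also showed no difference past the threshold. The 13 protein-coding genes of mitochondrial DNA summed to between 27385 and 31478 CPM in homecage mice and between 28156 and 31069.8 CPM in SOR mice. Of the 13, 3 were higher and 10 lower in SOR mice. Their median log2 fold change was -0.021, with 0 passing the adjusted test or an unadjusted p of 0.05 in edgeR. *mt-Co1*, the catalytic subunit of complex IV, had a log2 fold change of -0.0088 ± 0.059, and *mt-Nd1* of complex I had -0.092 ± 0.050. The median of all genes tested was -0.019.

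Among 55 tested assembly factors and accessory proteins of the chain, 23 were higher and 32 lower. Their median log2 fold change was -0.019, with 0 at an unadjusted p under 0.05. Among 20 genes of the citrate cycle and pyruvate dehydrogenase, which deliver the electrons, 2 were higher and 18 lower, with a median of -0.037. Among those, *Mpc1*, a pyruvate carrier subunit, had -0.088 ± 0.040 with an edgeR adjusted p of 0.495. In SOR mice 1 to 4 the assembly list summed to 1347, 1278, 1256 and 1298 CPM. The citrate cycle list summed to 2432, 2358, 2346 and 2385 CPM, and both had the same order of mice as the respiratory chain. The mitochondrially encoded genes, at 29714, 29390.2, 28156 and 31069.8 CPM, had another order, with SOR mouse 4 highest. Among 22 regulators of mitochondrial gene expression, 13 were higher and 9 lower, with a median of 0.016. They summed to 624, 606, 669 and 658 CPM in SOR mice 1 to 4, again in another order, with SOR mouse 3 highest. Of these regulators, named after their values were seen, *Pprc1*, a coactivator related to PGC-1, had 0.33 ± 0.15 (edgeR adjusted p = 0.490), *Gabpa*, the DNA-binding subunit of GABP, had 0.13 ± 0.051 (adjusted p = 0.439), and *Nrf1* and *Ppargc1a* had 0.011 and 0.039. In all 3 lists 0 genes passed the adjusted test, with 0, 1 and 2 at an unadjusted p under 0.05 by edgeR. Over all genes tested, 43.8% were higher and 56.2% lower, and 10.1% had an unadjusted p under 0.05.

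By the union of their exons, all genes tested were divided into quintiles of length, whose median log2 fold changes from the shortest to the longest were -0.028, -0.036, -0.026, -0.013 and -0.0032. Of the 85 members, 47, 20, 12, 5 and 1 belong to these quintiles. Markers of neurons had a median log2 fold change of -0.0043 (2 of 5 higher) and those of astrocytes -0.022 (2 of 5 higher), while markers of other cells differed more, at -0.19 for oligodendrocytes (0 of 5 higher), -0.21 for microglia (2 of 5 higher), 0.37 for red blood cells (5 of 5 higher) and 1.34 for choroid plexus (4 of 4 higher). The oligodendrocyte markers summed to 4991 to 5451 CPM in homecage mice and 4090.2 to 5356 CPM in SOR mice. In each of these lists 0 genes passed the adjusted test, and the part of cell composition or length in the members' values was not tested.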

How the data were processed

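Bulk RNA-seq libraries of 4 homecage and 4 SOR mice were analysed. The authors deposited unnormalized estimated counts of each gene from tximport, of which 52.6% are not whole. The methods name STAR and featureCounts within bcbio-nextgen and a total RNA kit with ribosomal RNA depletion, while the labels name polyA RNA. The quantifier behind tximport is not given in the sources used here. The spatial and single-nucleus samples were not analysed here.

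Counts were rounded. Library totals were 51406011 to 81525977, and the biological coefficient of variation was 14.1%. filterByExpr of edgeR 4.0.16 (R 4.3.3) kept 22018 genes. Groups were compared with upper-quartile factors and glmQLFTest without covariates, with p-values adjusted by Benjamini-Hochberg across those 22018 genes. Standard errors and 95% intervals came from that fit. CPM of 4 against 4 mice was also compared by exact permutation on log2(CPM + 0.01).

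The members and lists were chosen with earlier results of these data known. Named with values in every library were the 8 members with the smallest p, the largest rise and fall of each complex, the highest member per kb, isoform pairs and catalytic subunits. Genes were annotated with GENCODE M21 (GRCm38), and promoters with a RefSeq table. Marker lists covered neurons, CA1, CA3, dentate granule cells, astrocytes, oligodendrocytes, microglia, endothelium, choroid plexus, red blood cells, thalamus and muscle. Alternatives were scaling by TMM, by RLE or by library size, 2 other filters, the likelihood ratio test, DESeq2 1.42.0, limma-voom (limma 3.58.1), 1 to 3 RUVs factors, a replicate block, leaving out each mouse, moving *Ndufa4* to complex IV and leaving out tissue isoforms with *Atp5s*. The code was tested on simulated data. The values of 1 member and of 1 gene of the citrate cycle list are not reported here, although both stay in the counts, medians and sums.

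Replicate numbers did not pair the mice: correlations of deviations ran from -0.134 to 0.208 for equal numbers and from -0.384 to 0.292 for others (16353 genes). Within groups, the chi-square per degree of freedom between libraries was 8.94 to 38.9, so 0 pairs agreed within counting noise.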

Additional observations from a re-analysis of the deposited data

Results flagged for a closer look

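In 11 of 182 groups of 4 values, covering 91 members and sums, 1 library lay far from the other 3 by Dixon's criterion, which chance alone meets in about 1 group of 20. SOR mouse 1 was the high library for *Atp5g1* (101 CPM, others 77.0 to 80.1), *Ndufb5* (63.0, others 51.4 to 52.9), *Cox8a* (244, others 217 to 219) and *Cox6b2* (1.45, others 0.336 to 0.486). SOR mouse 4 was high for *Ndufs7* (35.8 CPM, others 31.9 to 32.5) and *Cox6a1* (144, others 130.1 to 132), and SOR mouse 3 was low for *Ndufs3* (44.0, others 51.3 to 52.3).

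Among homecage mice, mouse 3 was high for *Ndufa11* (34.5 CPM, others 33.7 to 33.8), mouse 4 was low for *Ndufs3* (49.0, others 51.8 to 52.0), and mouse 1 was low for *Uqcr11* (64.4, others 66.6 to 66.8) and *Cox7a2l* (131, others 141 to 142).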

How the results depend on the processing

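Under TMM, RLE and library size scaling, both other filters, the likelihood ratio test, DESeq2, limma-voom and each mouse left out, 0 members passed. With 1, 2 or 3 RUVs factors, 1 member was called and 1 passed the adjusted p alone, *Cox8b* each time, at log2 fold changes of 1.5, 1.37 and 1.37. These fits called 0.609%, 0.867% and 0.922% of all genes, against 0.173% without such factors. DESeq2 gave 5 members no adjusted p, *Cox8b* among them. The number of members higher in SOR mice was 41 under TMM, RLE and DESeq2 (27 in the report), and with single mice left out it ran from 13 (without SOR mouse 1) to 42 (without SOR mouse 3). *Sdha* turned to -0.0017 and -0.0034 with 2 and 3 RUVs factors and ran from -0.011 to 0.015 with single mice left out, and *Uqcrh* from -0.018 to 0.065. With single mice left out, the members' median ran from -0.056 to -0.0007, *Cox8b* from 1.0 to 2.54, *Cox6b2* from 0.24 to 1.22 and *Cox7a1* from 0.20 to 0.74. The cause of these shifts was not tested. Of 267 values recomputed with all mice, 253 were labelled as unchanged. Single genes had to keep their direction and their side of the threshold. Counts had to be equal or within a ratio of 1.5, and medians had to move by less than the spread between mice. Medians that changed sign within that spread, as in complexes II and V under TMM scaling, are among the 253.

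With the replicate number as a block, 0 members passed, 26 were higher and the members' median was -0.026, while over all genes 40 passed the adjusted p, against 68 without the block. The mice share only a number. Depth limits the low isoforms: *Cox8b* had as few as 2.99 estimated counts in a library, and counts assigned to pseudogene copies cannot be told apart from those of *Ndufb4* and *Atp5g2*. With 4 mice per group, the interval of the fold change stayed within a fold of 1.1 for 21 of 85 members.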

Other observations

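Ribosomal protein genes, the other large family of short and abundant nuclear transcripts, were described beside the respiratory chain. Of 91 tested cytosolic ribosomal protein genes, 13 were higher and 78 lower in SOR mice, with a median log2 fold change of -0.056, 0 at an adjusted p under 0.05 by edgeR and 9 at an unadjusted p under 0.05. Over all genes tested, 43.8% were higher, 56.2% lower and 10.1% at an unadjusted p under 0.05. Of 78 mitochondrial ribosomal protein genes, which serve the translation of the mitochondrially encoded subunits, 26 were higher and 52 lower, with a median of -0.033, 0 at an adjusted p under 0.05 and 7 unadjusted. Within the SOR group the summed CPM of the mitochondrial list was 1749.9, 1637, 1611 and 1689.5 and that of the cytosolic list 9645, 9203, 9144 and 9387, the same order of mice as for the respiratory chain. Many cytosolic ribosomal protein genes have processed copies, so their levels are uncertain.

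The remaining marker lists held 0 genes past the adjusted test. Their median log2 fold changes were 0.029 for CA1 (4 of 4 higher), -0.044 for CA3 (1 of 3), -0.10 for dentate granule cells (0 of 4), -0.21 for microglia (2 of 5), 0.063 for endothelium (3 of 4), 1.34 for choroid plexus (4 of 4), 0.37 for red blood cells (5 of 5), 0.045 for thalamus (3 of 4) and 0.044 for muscle (2 of 3 tested).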
